A study of Mus musculus with 12 samples.

Results

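Interferon regulatory factors (IRFs) and signal transducers and activators of transcription (STATs) are the DNA-binding proteins through which cells answer interferons and many cytokines. The 9 genes described here, Stat2, Stat3, Irf1, Irf2, Irf4, Irf5, Irf7, Irf8 and Irf9, were chosen by name, out of 42687 gene identifiers in the count table, as genes of these 2 families. These genes, and the gene lists used below, were chosen with earlier results of these data known. Shares called among them are therefore not an independent test. All 9 were in the table, and 8 carried enough counts to be tested; the exception was Irf4. Their mRNA was counted in libraries of DC2.4, an immortal mouse line of dendritic cell origin labelled as wild type, that had been exposed to extracellular vesicles from T cells.

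The 12 libraries formed 4 groups of 3. In ATEV, the cells were given vesicles of activated T cells at 15 µg/mL. DNase-ATEV cells were given the same vesicles at 15 µg/mL after digestion with Baseline-ZERO DNase, an enzyme that degrades DNA. NTEV cells were given, at 30 µg/mL, vesicles shed by non-activated T cells, and controls were given phosphate-buffered saline (PBS). The NTEV dose was therefore the larger by mass, and the labels place a note of 5 µg/mL vesicle DNA after it. The labels speak of 3 repeats of the procedure without saying whether these were rounds on the same cells or separate experiments, so the p-values measure only the spread between these libraries, which may be technical. All 4 groups are 1 cell line, and a bulk library cannot tell fewer expressing cells from less mRNA in each cell.

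In resting cells most STATs wait in the cytoplasm. When an interferon or cytokine binds its receptor, JAK kinases phosphorylate them, they pair and enter the nucleus. Type I and III interferons assemble ISGF3, in which STAT2 and a partner STAT are carried to interferon-stimulated response elements by IRF9. Interferon-gamma signals through a STAT pair that binds the gamma-activated sequence and switches on IRF1, which in turn drives antigen presentation genes and guanylate-binding proteins. IRF5 and IRF7 are activated downstream of nucleic acid sensors and Toll-like receptors, whereas IRF4 and IRF8 direct the development of dendritic cell and macrophage lineages. In dendritic cells these factors link the sensing of foreign nucleic acid to the maturation of the cell.

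Libraries held 19.4 to 30.4 M gene counts. Levels are given as TMM-scaled counts per 1e6 counts (CPM), and differences as edgeR log2 fold changes with their standard error (SE). A gene was called where edgeR's quasi-likelihood test gave a Benjamini-Hochberg adjusted p under 0.05 over the 13261 genes tested. The first principal component held 34.9% of the variance and did not separate all 4 groups. On it ATEV libraries lay at 9.33 to 31.1 and NTEV at -21.5 to 41.7. DNase-ATEV lay at -30.4 to 9.81 and PBS at -41.8 to -14.6. Replicate 1 was the lowest library in DNase-ATEV, NTEV and PBS and the highest in ATEV. The labelled cell type was checked against 14 dendritic cell markers. Clec9a was at 0 counts in all 12 libraries, Flt3 had 6 counts in total, Xcr1 27, Ccr7 4 and the MHC class II gene H2-Ab1 34. Cd209a had 2, Siglech 5 and Fscn1 37. In contrast, Cst3 averaged 624.9 CPM, Cd74 114.4 CPM, Id2 49.0 CPM, Itgax 32.6 CPM, Zbtb46 6.26 CPM and Batf3 5.24 CPM. Several dendritic cell markers were thus at or near 0 in these cells, while others were expressed. Macrophage markers were abundant, with Lyz2 at 2435 CPM and Cd68 at 1036 CPM on average.

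Of the 8 tested genes, 5 rose in ATEV-treated cells relative to PBS, namely Irf1, Irf7, Irf9, Stat2 and Irf8, and 0 fell. Across all tested genes 4.74% were called in this comparison and 3.32% were called higher. Relative to DNase-ATEV, 3 of the 8 were called and all 3 were higher in ATEV (Irf1, Irf7 and Irf8), where 1.46% of all genes were called and 1.32% were called higher. Relative to NTEV, 3 were called and all 3 were higher in ATEV (Irf1, Irf7 and Irf9), against 0.935% called and 0.875% called higher among all genes. At an unadjusted edgeR p under 0.05, 6 of the 8 passed against PBS, 8 against DNase-ATEV and 5 against NTEV. Among all tested genes 26.8%, 15.2% and 13.4% did. These 3 comparisons share the ATEV libraries and are not independent of one another.

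**Figure D1:**
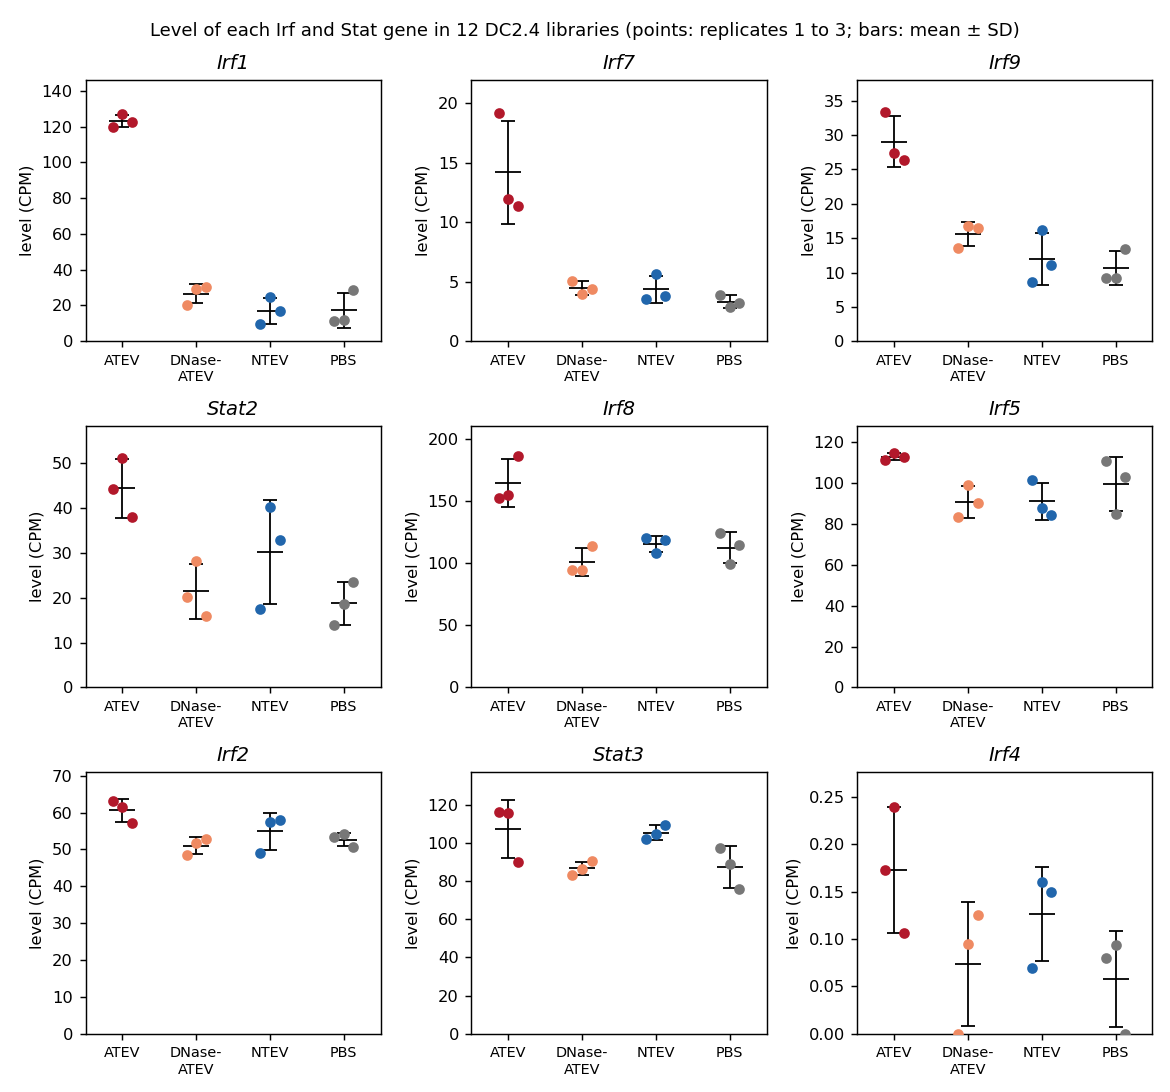
Levels of the 9 genes in CPM on linear axes, 1 panel per gene, with a point for each of the 3 libraries of a group and a bar for the mean ± SD. The ATEV points of Irf1 (119.9 to 126.9 CPM), Irf7 and Irf9 lie above every point of the other groups, whereas those of Irf2, Irf5 and Stat3 lie close to or among them.

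Promoters are shown because the proteins of this family bind such sites: those of the 4 genes with a motif match (Irf1, Stat2, Irf8 and Irf2, the last of which was not called in any comparison) and that of Irf7, which rose without one. The 250 bases before the annotated start site were taken from RefSeq (GRCm38.p6), where all 9 genes matched and gave 12 windows. Windows were searched on both strands for the core of the interferon-stimulated response element (GAAA, any 2 bases, GAAA), for the STAT dimer element (TTCNNNGAA), and for the ETS-IRF composite element that IRF4 and IRF8 bind with PU.1 (GGAA, any 2 bases, GAAA). Response and composite elements can share bases. Capitals below mark the matches, and sequences run 5′ to 3′ on the gene's strand.
Irf1, chr11:53769764-53770013 (plus strand): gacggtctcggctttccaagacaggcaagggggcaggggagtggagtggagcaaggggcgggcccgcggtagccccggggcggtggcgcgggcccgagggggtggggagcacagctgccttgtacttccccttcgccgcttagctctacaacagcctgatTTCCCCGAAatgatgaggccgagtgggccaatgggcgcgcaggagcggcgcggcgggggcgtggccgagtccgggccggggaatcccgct
Stat2, chr10:128270248-128270497 (plus strand): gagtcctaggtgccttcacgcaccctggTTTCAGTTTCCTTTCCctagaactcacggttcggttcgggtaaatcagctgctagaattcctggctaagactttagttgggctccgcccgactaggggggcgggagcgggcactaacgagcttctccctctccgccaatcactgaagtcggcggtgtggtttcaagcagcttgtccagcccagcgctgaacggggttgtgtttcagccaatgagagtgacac
Irf8, chr8:120736108-120736357 (plus strand): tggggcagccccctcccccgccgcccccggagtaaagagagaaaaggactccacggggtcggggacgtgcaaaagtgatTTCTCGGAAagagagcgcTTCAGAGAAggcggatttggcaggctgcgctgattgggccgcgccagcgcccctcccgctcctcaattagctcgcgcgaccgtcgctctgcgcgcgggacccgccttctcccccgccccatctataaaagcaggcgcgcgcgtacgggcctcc
Irf7, chr7:141266425-141266674 (minus strand): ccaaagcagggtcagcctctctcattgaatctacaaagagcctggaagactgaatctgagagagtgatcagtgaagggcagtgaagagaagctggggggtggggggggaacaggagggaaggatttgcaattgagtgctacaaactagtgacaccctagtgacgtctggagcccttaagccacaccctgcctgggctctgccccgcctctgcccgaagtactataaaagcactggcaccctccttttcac
Irf2, chr8:46739495-46739744 (plus strand): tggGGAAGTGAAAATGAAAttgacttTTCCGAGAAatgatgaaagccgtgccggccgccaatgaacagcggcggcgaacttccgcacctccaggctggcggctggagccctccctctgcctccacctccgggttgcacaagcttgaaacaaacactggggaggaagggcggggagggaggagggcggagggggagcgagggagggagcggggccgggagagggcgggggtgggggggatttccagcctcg

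The Irf1 window held 1 STAT dimer element, TTCCCCGAA, 90 to 82 bases before the start site. Irf8 held a pair, TTCTCGGAA and TTCAGAGAA. In the Stat2 window a response element read on the minus strand (TTTCAGTTTC on the strand printed) overlapped a composite element. Irf2, which was not called in any comparison, held all 3 kinds, with its response element GAAAATGAAA overlapping the composite element GGAAGTGAAA.

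No match was found in the windows of Irf7, Irf9, Irf5, Stat3 and Irf4, nor at the second annotated starts of Irf1, Irf9 and Irf8. Irf7 and Irf9 thus rose without these letters in their windows. Over 32851 RefSeq windows of the same length, 2.98% held the response element, 7.02% the STAT dimer element and 2.3% the composite element. A match is a string of letters and not evidence of binding.

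**Figure D2:**
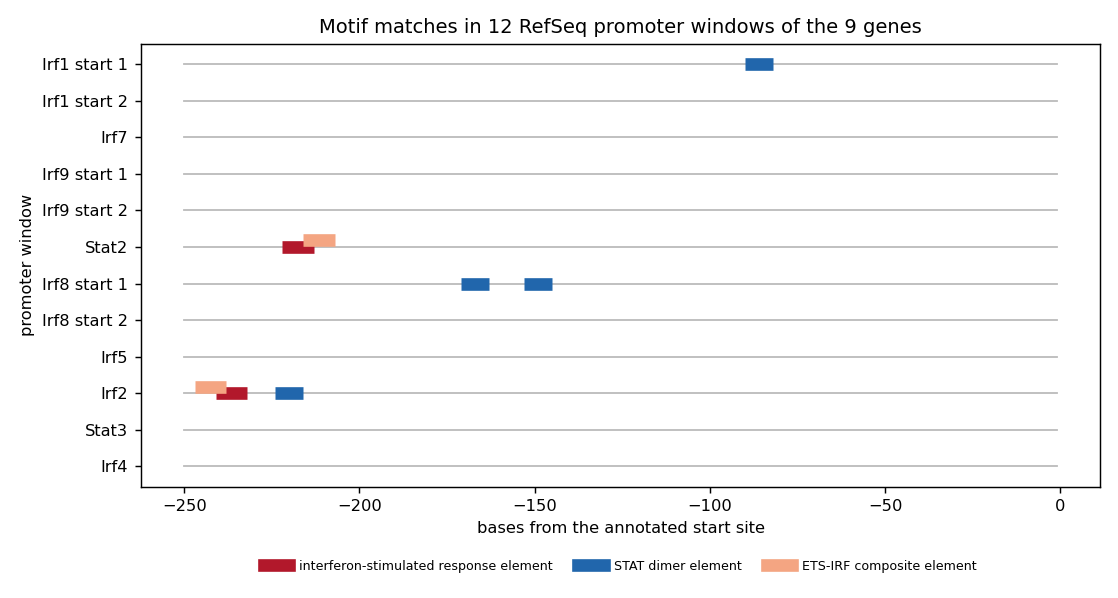
Positions of motif matches in the 12 promoter windows, in bases from the annotated start site, with 1 line per window and a coloured block per match. Matches lie in the windows of Irf1, Stat2, Irf8 and Irf2, and the other windows hold none.

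Irf1, an activator that interferon-gamma induces rapidly and that binds response elements by itself, changed the most of the 8. It stood at 119.9, 126.9 and 122.5 CPM in ATEV libraries, against 20.5, 29.0 and 30.2 CPM in DNase-ATEV, 9.59, 24.5 and 16.7 CPM in NTEV and 11.1, 12.2 and 28.5 CPM in PBS. The ATEV libraries lay close together and above all 9 others, whose groups overlapped. PBS replicate 3 was the high one of its group, at a level like that of the DNase-ATEV libraries. The rise was 7.12-fold over PBS (log2 fold change 2.83 ± 0.37 SE, adjusted p = 7.86e-04), 4.64-fold over DNase-ATEV (2.21 ± 0.36, adjusted p = 0.00565) and 7.28-fold over NTEV (2.86 ± 0.37, adjusted p = 0.00123). All 3 calls held when any 1 library was left out, with the log2 fold change over PBS between 2.61 and 3.39.

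Irf2 is the close relative of IRF1 that occupies the same elements and is known mainly as a repressor there. Its level was 63.2, 61.5 and 57.3 CPM in ATEV, 48.5, 51.8 and 52.8 CPM in DNase-ATEV, 49.1, 57.6 and 58.1 CPM in NTEV and 53.3, 54.2 and 50.6 CPM in PBS. The ATEV libraries lay above those of DNase-ATEV and of PBS without overlap, but by little. The difference from PBS was 0.20 ± 0.11 on the log2 scale (95% interval -0.02 to 0.43, adjusted p = 0.231) and did not pass the test. Relative to DNase-ATEV it was 0.25 ± 0.11 (0.02 to 0.48, adjusted p = 0.290), also not called.

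The balance of this pair differed between groups. Per exonic kilobase, Irf1 stood at 3.78 ± 0.23 times Irf2 in ATEV-treated cells, at 0.962 ± 0.155 times in DNase-ATEV, at 0.563 ± 0.216 times in NTEV and at 0.619 ± 0.373 times in PBS (SD, n = 3 each). Irf1 thus exceeded Irf2 in all 3 ATEV libraries, in which the lowest ratio was 3.53. Among the other 9 libraries the highest ratio was 1.06.

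Stat2 and Irf9 encode the subunits that give ISGF3 its transactivation domain and its DNA specificity. Stat2 stood at 44.3, 51.1 and 38.0 CPM in ATEV, 20.3, 28.1 and 16.0 CPM in DNase-ATEV, 17.6, 40.2 and 32.8 CPM in NTEV and 13.9, 18.7 and 23.5 CPM in PBS. ATEV libraries lay above all of DNase-ATEV and PBS, but NTEV replicate 2 lay among them, and NTEV was the widest group. Stat2 rose 2.38-fold over PBS (log2 fold change 1.25 ± 0.29, adjusted p = 0.0300), and this call ended when PBS replicate 1 or 2, or ATEV replicate 2 or 3, was left out (adjusted p 0.0572 to 0.126, with log2 fold changes of 1.09 to 1.36). Relative to DNase-ATEV its difference of 1.05 ± 0.29 missed the threshold (adjusted p = 0.109), and relative to NTEV it was 0.56 ± 0.28 (95% interval -0.05 to 1.17, adjusted p = 0.410).

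Irf9 stood at 33.3, 27.4 and 26.3 CPM in ATEV, 13.6, 16.8 and 16.5 CPM in DNase-ATEV, 8.63, 16.1 and 11.1 CPM in NTEV and 9.15, 9.20 and 13.4 CPM in PBS. All 3 ATEV libraries were above the other 9. Irf9 rose 2.74-fold over PBS (1.45 ± 0.23, adjusted p = 0.00293) and 2.43-fold over NTEV (1.28 ± 0.23, adjusted p = 0.0124). The call against NTEV ended without NTEV replicate 3 (1.22, adjusted p = 0.0815) and in the fit of those 2 groups alone (adjusted p = 0.0526). Relative to DNase-ATEV it was 1.86 times as high (0.89 ± 0.22), with an adjusted p of 0.0772 that missed the threshold in this fit. Irf9 (adjusted p = 0.00752) and Stat2 (adjusted p = 0.0169) both passed in that comparison with DESeq2, and both also passed without a filter on low counts or in the fit of those 2 groups alone.

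Irf7, the factor that amplifies type I interferon production once induced, was the least abundant of the 8 tested per exonic kilobase. Its level was 19.2, 12.0 and 11.4 CPM in ATEV, 5.06, 3.93 and 4.42 CPM in DNase-ATEV, 3.55, 5.69 and 3.83 CPM in NTEV and 3.92, 2.91 and 3.19 CPM in PBS. ATEV replicate 1 was the highest library, and the lowest ATEV library still stood above every library of the other groups. Irf7 rose 4.24-fold over PBS (2.08 ± 0.26, adjusted p = 5.61e-04), 3.17-fold over DNase-ATEV (1.67 ± 0.25, adjusted p = 0.00416) and 3.26-fold over NTEV (1.70 ± 0.25, adjusted p = 0.00355). Each of these calls held without any 1 library, including ATEV replicate 1.

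Irf5, which acts beside IRF7 behind Toll-like receptors and is known for inducing inflammatory cytokines, was the most abundant of the 9 per exonic kilobase. It stood at 111.1, 114.4 and 112.5 CPM in ATEV, 83.1, 98.7 and 90.3 CPM in DNase-ATEV, 101.1, 87.6 and 84.0 CPM in NTEV and 110.6, 84.9 and 102.5 CPM in PBS. The ATEV libraries lay narrowly above the others, and PBS replicate 1 nearly reached them. The difference from PBS was 0.18 ± 0.12 (95% interval -0.09 to 0.45, adjusted p = 0.354). Those from DNase-ATEV (0.31, 0.05 to 0.58, adjusted p = 0.256) and NTEV (0.31, 0.04 to 0.58, adjusted p = 0.311) were not called either. In the annotation 14.1% of the exonic length of Irf5 is shared with Tnpo3 on the other strand, so part of its count depends on how strand was handled.

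Irf8, the lineage factor of conventional type 1 dendritic cells and monocytes, came next after Irf5 per exonic kilobase in DNase-ATEV, NTEV and PBS. It stood at 152.2, 154.3 and 186.2 CPM in ATEV, 94.8, 94.3 and 114.0 CPM in DNase-ATEV, 119.7, 107.9 and 118.8 CPM in NTEV and 123.8, 98.9 and 114.4 CPM in PBS. ATEV libraries lay above the other 9 without overlap. The rise was 1.46-fold over PBS (0.55 ± 0.13, adjusted p = 0.0322) and 1.63-fold over DNase-ATEV (0.70 ± 0.13, adjusted p = 0.0136), and the 1.42-fold difference from NTEV (0.51 ± 0.13) had an adjusted p of 0.107. These calls were close to the threshold. Against PBS only leaving out ATEV replicate 1 kept the call, and the 5 other single libraries each ended it, with adjusted p of 0.0531 to 0.176 and log2 fold changes of 0.46 to 0.64. Against DNase-ATEV the call ended without ATEV replicate 3, DNase-ATEV replicate 1 or DNase-ATEV replicate 2, with adjusted p of 0.0640 to 0.105, and in the fit of those 2 groups alone (adjusted p = 0.0522).

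Irf4, the factor of conventional type 2 dendritic cells and plasma cells, was barely detected. It had 4, 5 and 2 counts in ATEV, 0, 2 and 3 in DNase-ATEV, 2, 4 and 3 in NTEV and 2, 2 and 0 in PBS. The sums were 11 counts in ATEV (exact Poisson 95% interval 5.49 to 19.7), 5 in DNase-ATEV (1.62 to 11.7), 9 in NTEV (4.12 to 17.1) and 4 in PBS (1.09 to 10.2). These intervals cover counting error only and overlap, so no difference was detectable at this depth.

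Stat3, which carries signals of the IL-6 and IL-10 families, stood at 116.2, 115.8 and 90.0 CPM in ATEV, 83.4, 86.5 and 90.4 CPM in DNase-ATEV, 102.2, 104.7 and 109.7 CPM in NTEV and 97.4, 89.1 and 75.7 CPM in PBS. ATEV replicates 1 and 2 were the highest of the 12 libraries and ATEV replicate 3 lay among those of DNase-ATEV and PBS, whereas the NTEV libraries lay above all DNase-ATEV and all PBS libraries. The log2 difference of ATEV from PBS was 0.30 ± 0.13 (95% interval 0.02 to 0.57, adjusted p = 0.161), and from NTEV it was 0.02 ± 0.13 (-0.25 to 0.30, adjusted p = 0.952). From DNase-ATEV it was 0.31 ± 0.13 (0.03 to 0.58, adjusted p = 0.280), also not called. The ratio of Stat2 to Stat3 per exonic kilobase was 0.667 ± 0.050 in ATEV, 0.399 ± 0.119 in DNase-ATEV, 0.458 ± 0.172 in NTEV and 0.356 ± 0.136 in PBS (SD, n = 3 each), and ATEV overlapped with NTEV.

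**Figure D3:**
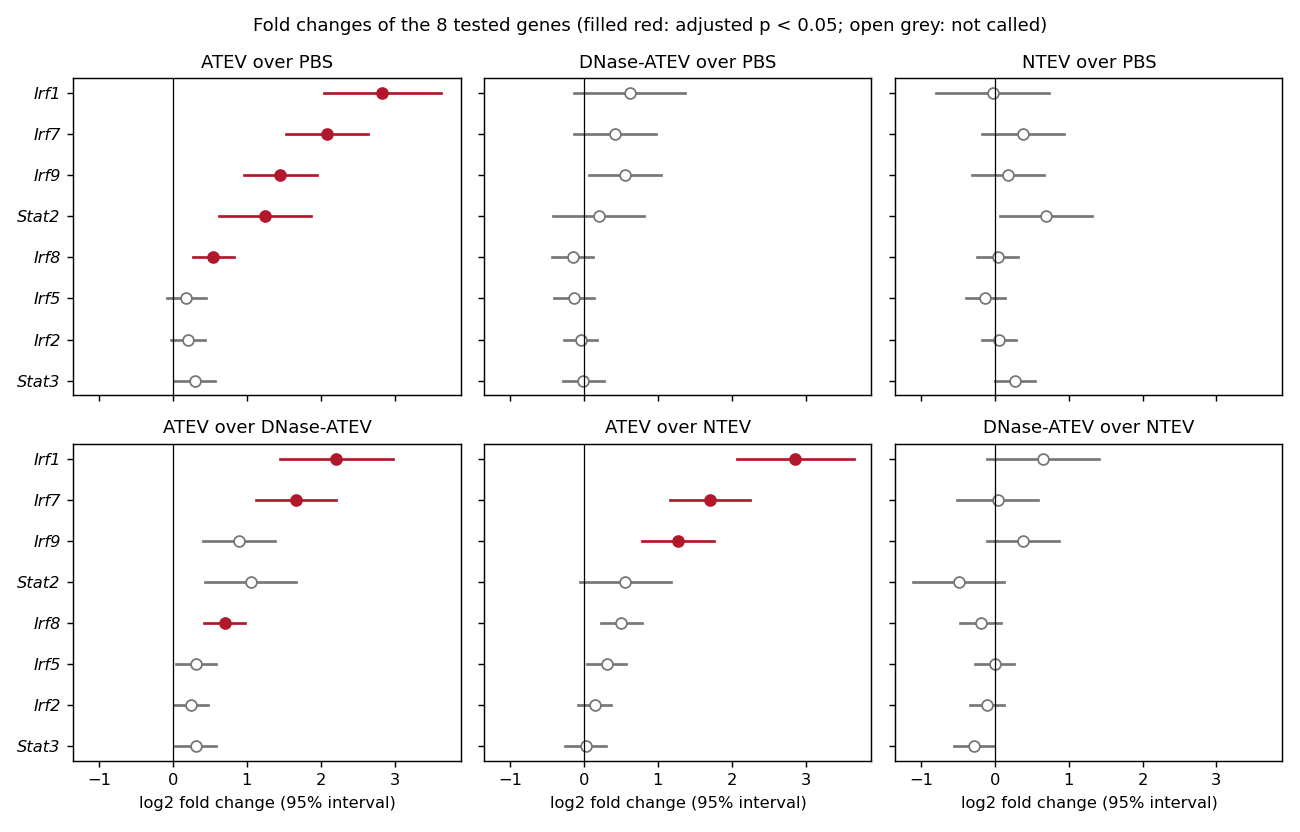
Log2 fold changes of the 8 tested genes in the 6 comparisons, with 95% intervals, where filled red points are called at an adjusted p under 0.05. Called points appear in the 3 comparisons that have ATEV on top, with Irf1 the farthest from 0 (2.83, 2.21 and 2.86), and none in the other 3.

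The remaining comparisons concern cells given DNase-treated vesicles and cells given vesicles of non-activated T cells. DNase-ATEV against PBS called 0 of the 8 genes with edgeR, as it called 0% of all genes. DESeq2 called 37 genes overall and 0 of the 8. At an unadjusted p under 0.05 Irf9 alone passed, where 5.96% of all genes did, with 1.47 times its PBS level (0.56 ± 0.23, unadjusted p = 0.0277, adjusted p = 0.782). Its DNase-ATEV libraries lay just above those of PBS, the lowest of them at 13.6 CPM against 13.4 CPM for PBS replicate 3. For Irf1 the difference was 0.62 ± 0.35 (95% interval -0.14 to 1.38, adjusted p = 0.826), which reached 1.18 without PBS replicate 3 and was still not called (adjusted p = 0.712). For Irf7 it was 0.42 ± 0.26 (-0.14 to 0.97) and for Stat2 0.20 ± 0.29 (-0.42 to 0.82), and the intervals of both still include rises of over 1.5-fold. Irf8, at -0.15 (-0.43 to 0.13), Irf5, at -0.13, Irf2, at -0.04, and Stat3, at -0.01, lay nearer to 0.

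NTEV against PBS called 0 of the 8 genes with edgeR or with DESeq2, and edgeR called 2.31% of all genes. Stat2 alone passed an unadjusted p under 0.05, which 19.1% of all genes did, with a difference of 0.69 ± 0.29 (unadjusted p = 0.0322, adjusted p = 0.214). It was called without NTEV replicate 1 (0.98, adjusted p = 0.0245) and with no filter on low counts (0.72, adjusted p = 0.0438). Irf1 differed by -0.03 ± 0.35 (95% interval -0.79 to 0.73), Irf7 by 0.38 ± 0.26 (-0.17 to 0.93) and Irf9 by 0.17 ± 0.23 (-0.31 to 0.66). Without PBS replicate 3 the Irf1 value was 0.52 (adjusted p = 0.388) and without NTEV replicate 2 it was -0.42 (adjusted p = 0.719), so single libraries set its sign. Stat3 was 1.21 times as high in NTEV as in PBS (0.27 ± 0.13, adjusted p = 0.267) and Irf8 differed by 0.04 ± 0.13.

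DNase-ATEV against NTEV called 0 of the 8 genes with edgeR or with DESeq2, and edgeR called 0.679% of all genes. Stat3 was lower in DNase-ATEV by an amount that passed only the unadjusted threshold (-0.28 ± 0.13, unadjusted p = 0.0455, adjusted p = 0.392), which 12.3% of all genes passed. Irf1 was 1.57 times as high in DNase-ATEV as in NTEV (0.65 ± 0.35, 95% interval -0.10 to 1.41) and Stat2 0.712 times as high (-0.49 ± 0.29, -1.11 to 0.13), neither of them called. In this comparison the deviations of same-numbered libraries correlated for replicates 1 and 2 (0.619 and 0.346), and little for replicate 3 (0.129). With the replicate number as a block, 0 of the 8 genes were called, as without it, and 41 genes overall in place of 90.

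Over the 8 tested genes chosen here the median log2 fold change was 0.90 for ATEV against PBS, beside 0.03 for all tested genes. It was 0.80 for ATEV against DNase-ATEV and 0.53 for ATEV against NTEV, beside 0.00 and -0.01 for all genes. It was 0.09 for DNase-ATEV against PBS, 0.12 for NTEV against PBS and -0.05 for DNase-ATEV against NTEV. All 8 genes had positive values in the 3 comparisons with ATEV on top, whereas 4, 6 and 3 of the 8 did in the other comparisons, in the order just given. These values do not hold for the whole of the 2 families. Irf3, Stat5a, Stat5b and Stat6, described below, were also tested and are outside the 8. Over those 4 the median was 0.03 against PBS, 0.01 against DNase-ATEV and -0.16 against NTEV for ATEV, with 3, 2 and 1 positive.

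The libraries within a group were uneven for the interferon-induced members. In NTEV, replicate 2 was the highest and replicate 1 the lowest for Irf1, Irf7, Irf9 and Stat2. In PBS, replicate 3 was the highest for Irf1, Irf9 and Stat2 but not for Irf7. On the centred log2 scale Irf1 ran from -1.63 in NTEV replicate 1 to -0.28 in NTEV replicate 2, and from -1.42 in PBS replicate 1 to -0.07 in PBS replicate 3. In ATEV its highest value was 2.08 and the other libraries lay close below.

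**Figure D4:**
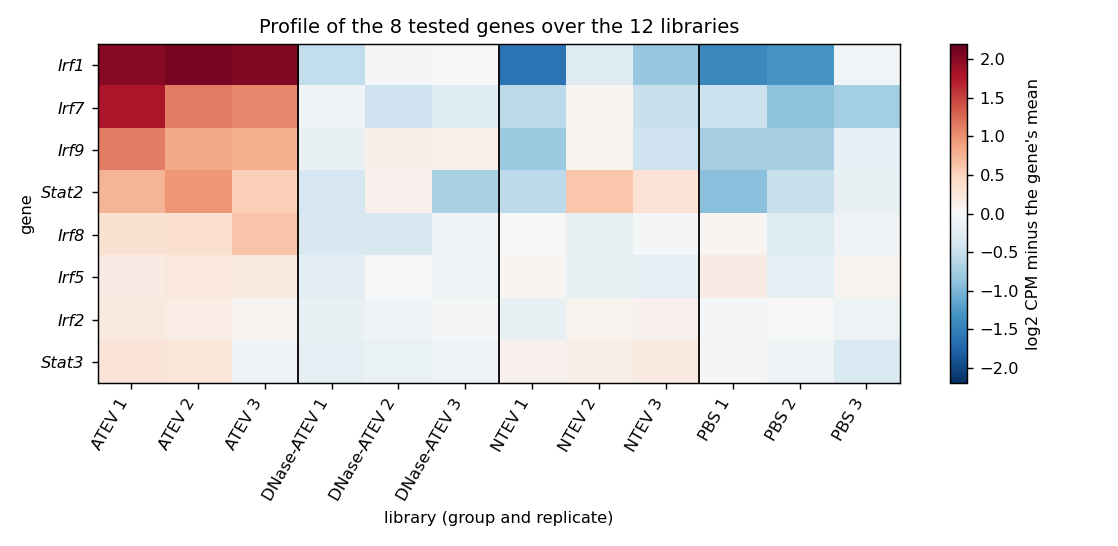
Profiles of the 8 tested genes over the 12 libraries, as log2 CPM minus the gene's mean on the colour scale, with libraries grouped by treatment. Irf1, Irf7, Irf9 and Stat2 are red in the 3 ATEV libraries, and Stat2 is also red in NTEV replicates 2 and 3 (0.61 and 0.31).

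Ordered by CPM per exonic kilobase, the untreated cells had Irf5 first (34.2), then Irf8 (15.9), Stat3 (9.17), Irf2 (7.12), Irf1 (4.35), Stat2 (3.16), Irf9 (1.97), Irf7 (0.884) and Irf4 (0.012). In this PBS order the ranges of Irf2 and Irf1, of Irf1 and Stat2, and of Stat2 and Irf9 overlapped, while the other neighbours did not overlap. In ATEV-treated cells the order began with Irf5 (38.8), Irf1 (31.0) and Irf8 (23.3), whose ranges did not overlap, followed by Stat3 (11.3), Irf2 (8.20), Stat2 (7.50), Irf9 (5.39), Irf7 (3.76) and Irf4 (0.035). Irf1 was thus number 2 of the 9 there, number 5 in DNase-ATEV (6.67) and in PBS, and number 6 in NTEV (4.26). In ATEV only the ranges of Irf2 and Stat2, and of Irf9 and Irf7, overlapped between neighbours. The lengths are unions of all annotated exons of a gene, and the annotation behind the counts is not given. Orders and ratios between genes per exonic kilobase depend on that choice of length.

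The profiles of the members were compared by the root mean square difference of their centred log2 CPM over the 12 libraries, where 0 means equal profiles. Stat3 and Irf2 were the closest pair at 0.125, followed by Irf2 and Irf5 at 0.169. Among the genes called in ATEV against PBS the closest were Irf7 and Irf9 at 0.366, then Stat2 and Irf9 at 0.404. Irf1 stood apart because of the size of its range, and its nearest member, Irf7, was at 0.659.

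Among 10520 named genes of at least 1 CPM, the profiles nearest to Irf1 were those of Irgm2 (0.357) and Psmb9 (0.483), an immunity-related GTPase and an immunoproteasome subunit, and of Calhm6 (0.484). Nearest to Irf7 were Parp14 (0.205), an ADP-ribosyltransferase, Irgm1 (0.270) and Lgals3bp (0.287). Nearest to Irf9 were Ifih1 (0.231), which encodes the RNA sensor MDA5, Zfp945 (0.232) and Epsti1 (0.233). Nearest to Stat2 were Znfx1 (0.201), Cd274 (0.227), which encodes PD-L1, and Zfp382 (0.243). Nearest to Irf8 were Slc2a6 (0.104), Akr1b10 (0.130) and Itgb1bp1 (0.133). The median distance to all candidates was 1.31 for Irf1, 0.856 for Irf7, 0.660 for Irf9, 0.636 for Stat2 and 0.380 for Irf8.

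The ligands that activate these factors were next examined. Of 21 type I, II and III interferon genes, 19 were at 0 counts in all 12 libraries, among them Ifnb1 and Ifng. Ifnk had 2 counts and Ifnz had 1 in all libraries together. A count of 0 allows a level of up to 0.0987 to 0.155 CPM in a library, taking 3 counts as the limit and covering counting error only. Interferon mRNA was thus not detectable at this depth in any group, ATEV included, in cells collected at the labelled time.

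Of 25 tested receptor, JAK and inhibitor genes, edgeR called 0 higher and 1 lower in ATEV against PBS. There 6 of the 25 passed an unadjusted p under 0.05 and DESeq2 called 4. The gene called by edgeR was Il6ra, the IL-6 receptor alpha chain, at 94.8 ± 16.2 CPM in ATEV and 147.2 ± 6.44 CPM in PBS (log2 fold change -0.63 ± 0.16, adjusted p = 0.0393). In the 5 other comparisons 0 of the 25 were called with edgeR, 3 to 8 passed an unadjusted p under 0.05, and DESeq2 called 3 for NTEV against PBS and 0 in the rest. The Il6ra call was kept only when ATEV replicate 2 was the library left out, and ended without any of the 5 others (highest adjusted p = 0.138). The list's median was 0.11 for ATEV against PBS, against 0.03 for all genes. As background for these counts, an unadjusted p under 0.05 was reached by 26.8% of all tested genes in ATEV against PBS, 15.2% in ATEV against DNase-ATEV and 13.4% in ATEV against NTEV, beside the shares already given for the other comparisons (5.96%, 19.1% and 12.3%). DESeq2 called 11.4%, 3.62% and 2.64% of the genes it tested in the comparisons with ATEV on top, 0.3% in DNase-ATEV against PBS, 6.24% in NTEV against PBS and 2.88% in DNase-ATEV against NTEV.

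Of 23 kinases, adaptors and sensors upstream of IRFs, edgeR called 4 higher and 0 lower in ATEV against PBS. There 10 of the 23 passed an unadjusted p under 0.05 and DESeq2 called 5, beside 26.8% and 11.4% of all genes. Ikbke, the kinase IKK-epsilon that phosphorylates IRF3 and IRF7, stood at 66.1 ± 7.06 CPM in ATEV, 32.9 ± 4.38 CPM in DNase-ATEV and 35.1 ± 7.14 CPM in PBS (SD, n = 3 each). It rose over PBS by 0.91 ± 0.17 (adjusted p = 0.00878) and over DNase-ATEV by 1.00 ± 0.17 (adjusted p = 0.00698). Trim21, a ubiquitin ligase that acts on IRF proteins, rose over PBS (0.99 ± 0.18, adjusted p = 0.00862), over DNase-ATEV (0.91 ± 0.18, adjusted p = 0.0214) and over NTEV (1.00 ± 0.18, adjusted p = 0.0143). Tlr3, the endosomal sensor of double-stranded RNA, rose over PBS by 1.63 ± 0.31 (adjusted p = 0.0116) and Irak2, a kinase behind Toll-like receptors, by 0.84 ± 0.20 (adjusted p = 0.0309). The Ikbke call over DNase-ATEV held without any 1 library. Over PBS, Ikbke and Trim21 lost their calls without PBS replicate 2 (adjusted p = 0.0530 and 0.0611), Tlr3 without ATEV replicate 2 or PBS replicates 2 or 3, and Irak2 without ATEV replicates 1 or 2 or PBS replicates 1 or 2. Trim21 over DNase-ATEV passed only with ATEV replicate 1 left out, and over NTEV it lost its call without ATEV replicate 3 or NTEV replicates 2 or 3. The list's counts were 2 higher and 0 lower against DNase-ATEV and 1 higher and 0 lower against NTEV, with 0 called by edgeR in the other 3 comparisons, where 2 to 7 passed an unadjusted p under 0.05 and DESeq2 called 0 to 3.

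Of 19 cofactors, partners and repressors, edgeR called 2 higher and 1 lower in ATEV against PBS. There 6 of the 19 passed an unadjusted p under 0.05 and DESeq2 called 5, beside 26.8% and 11.4% of all genes. Nmi, an interferon-induced protein that interacts with STATs, stood at 20.3 ± 3.61 CPM in ATEV, 9.65 ± 0.76 CPM in NTEV and 8.64 ± 0.93 CPM in PBS. It rose over PBS by 1.23 ± 0.18 (adjusted p = 0.00150) and over NTEV by 1.07 ± 0.18 (adjusted p = 0.00710). Bcl6, a repressor that competes for STAT elements, was higher than in PBS both in ATEV (0.64 ± 0.15, adjusted p = 0.0292) and in NTEV (0.81 ± 0.15, adjusted p = 0.0164). Ikzf1, the zinc finger factor Ikaros, was lower than in PBS both in ATEV (-0.59 ± 0.12, adjusted p = 0.0192) and in NTEV (-0.62 ± 0.12, adjusted p = 0.0229). Both NTEV calls were kept only when NTEV replicate 1 was the library left out, and in ATEV Bcl6 and Ikzf1 each lost the call without any of 4 single libraries, among them ATEV replicate 2 and PBS replicates 1 and 2. The Nmi call over PBS held without any 1 library, and that over NTEV ended without NTEV replicate 3 (adjusted p = 0.0669). No other gene of this list was called by edgeR in the 6 comparisons. In ATEV against DNase-ATEV, where edgeR called 0 of the 19, 9 passed an unadjusted p under 0.05, which 15.2% of all genes did, and DESeq2 called 3.

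The known targets were then set beside their factors. Of 39 tested ISGF3 targets, 25 rose and 0 fell in ATEV against PBS, and the list's median log2 fold change was 1.11. The 4 with the smallest adjusted p were Lgals3bp, a secreted glycoprotein, Zbp1, a sensor of Z-form nucleic acid, Parp14 and Oasl2, a relative of the oligoadenylate synthetases. Lgals3bp stood at 80.3 ± 5.71 CPM in ATEV, 31.4 ± 1.62 CPM in DNase-ATEV, 29.2 ± 2.62 CPM in NTEV and 17.7 ± 0.73 CPM in PBS. Zbp1 stood at 8.84 ± 2.4 CPM in ATEV, 0.721 ± 0.251 CPM in DNase-ATEV, 0.144 ± 0.039 CPM in NTEV and 0.196 ± 0.094 CPM in PBS.

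Against DNase-ATEV 13 of the 39 rose and against NTEV 15 did, with 0 lower in either comparison and medians of 0.89 and 0.82. Leaving out 1 library gave 12 to 20 calls against PBS, the fewest without PBS replicate 2 (12) and PBS replicate 1 (13), and 5 to 13 against DNase-ATEV. The counts against DNase-ATEV were 5 without DNase-ATEV replicate 2 or replicate 3, 7 without ATEV replicate 3 and 8 without ATEV replicate 2. DNase-ATEV against PBS called 0 of the 39 with edgeR, as it called 0% of all genes. The list's median there was 0.25, beside 0.00 for all genes, and 27 of the 39 had positive values. At an unadjusted p under 0.05, 9 of the 39 passed, where 5.96% of all genes did. DESeq2 called 1 of them, beside 0.3% of the genes it tested. NTEV against PBS called 2 higher, Lgals3bp (0.72 ± 0.11, adjusted p = 0.0105) and Ddx60 (2.24 ± 0.53, adjusted p = 0.0441), and 1 lower, the exonuclease gene Isg20 (-1.36 ± 0.30, adjusted p = 0.0361). These 3 calls became 0 without NTEV replicate 3 or PBS replicate 2, 1 without NTEV replicate 2 or PBS replicates 1 or 3, 5 without NTEV replicate 1, and 0 in the fit of those 2 groups alone. DNase-ATEV was above NTEV for Isg20 (1.82 ± 0.30, adjusted p = 0.0229) and Zbp1 (2.24 ± 0.45, adjusted p = 0.0424). With the replicate block the Zbp1 call was lost (adjusted p = 0.0649) and that of Isg20 was kept (adjusted p = 0.0469). Neither was called without DNase-ATEV replicates 2 or 3 or NTEV replicates 2 or 3, nor in the fit of those 2 groups alone, and Zbp1 was not called without DNase-ATEV replicate 1 either.

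Of 33 tested IRF1 and interferon-gamma targets, 28 rose and 0 fell in ATEV against PBS, 24 rose against DNase-ATEV and 22 against NTEV, with 0 lower in each. The medians were 1.09, 1.00 and 1.01. Gbp2, a guanylate-binding protein gene, stood at 39.6 ± 8.02 CPM in ATEV, 2.62 ± 1.31 CPM in DNase-ATEV, 0.962 ± 0.321 CPM in NTEV and 0.805 ± 0.307 CPM in PBS. Its log2 fold change was 5.59 ± 0.39 over PBS (adjusted p = 3.82e-06) and 3.92 ± 0.34 over DNase-ATEV (adjusted p = 6.16e-05). Gbp3, Gbp7 and Irgm2 rose over PBS by 3.56 ± 0.23, 3.91 ± 0.25 and 3.19 ± 0.21, with adjusted p of 2.78e-06, 2.78e-06 and 3.04e-06. Guanylate-binding protein genes are related in sequence, and whether the counting split reads between them was not tested.

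Leaving out 1 library gave 23 to 27 calls among the 33 against PBS, 15 to 26 against DNase-ATEV and 15 to 23 against NTEV. The count against DNase-ATEV was 15 without DNase-ATEV replicate 2, and that against NTEV was 15 without NTEV replicate 3. DNase-ATEV against PBS called 0 of the 33 with edgeR, as it called 0% of all genes. The list's median there was 0.18, beside 0.00 for all genes, and 27 of the 33 had positive values. At an unadjusted p under 0.05, 9 of the 33 passed, where 5.96% of all genes did. DESeq2 called 3 of them, beside 0.3% of the genes it tested. NTEV against PBS called the class I gene H2-D1 higher (0.56 ± 0.13, adjusted p = 0.0412) and Gbp7 lower (-1.36 ± 0.29, adjusted p = 0.0287). Both calls ended without any 1 library except NTEV replicate 1, without which 5 genes of the list were called, and 0 were called in the fit of those 2 groups alone. DNase-ATEV was above NTEV for Gbp7 (2.44 ± 0.27, adjusted p = 0.00319) and Gbp3 (1.73 ± 0.23, adjusted p = 0.00734), and below it for Nos2, inducible nitric oxide synthase (-0.90 ± 0.17, adjusted p = 0.0332). Gbp7 and Gbp3 kept their calls with the replicate block and without any 1 library. Nos2 lost its call with the block (adjusted p = 0.0611), and without NTEV replicate 3 or any DNase-ATEV replicate. In the fit of those 2 groups alone none of these 3 was called (adjusted p of 0.0850, 0.0850 and 0.121 for Gbp7, Gbp3 and Nos2).

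Among STAT3 targets the NTEV group was the higher one for its leading gene. Lcn2, which encodes lipocalin 2, stood at 3.19 ± 0.18 CPM in ATEV, 1.27 ± 0.62 CPM in DNase-ATEV, 18.9 ± 6.74 CPM in NTEV and 0.692 ± 0.304 CPM in PBS. It rose in NTEV over PBS by 4.75 ± 0.41 (adjusted p = 3.14e-04), and it was lower in ATEV than in NTEV by -2.56 ± 0.35 (adjusted p = 0.00204) and in DNase-ATEV than in NTEV by -3.88 ± 0.38 (adjusted p = 0.00165). These 3 calls held with any 1 library left out and with the replicate block, while that of DNase-ATEV against NTEV missed the threshold in the fit of those 2 groups alone (adjusted p = 0.0627). Lcn2 also rose in ATEV over PBS (2.18 ± 0.40, adjusted p = 0.00962), and this call ended without PBS replicate 2 (adjusted p = 0.0640). Saa3, an acute-phase protein gene, rose over PBS in ATEV (2.42 ± 0.48, adjusted p = 0.0140) and in NTEV (2.66 ± 0.48, adjusted p = 0.0169), and stood at 105.4 ± 74.5 CPM in ATEV, 16.8 ± 5.45 CPM in DNase-ATEV, 124.4 ± 42.9 CPM in NTEV and 19.7 ± 9.83 CPM in PBS. Both Saa3 calls ended without PBS replicates 2 or 3. The ATEV call also ended without ATEV replicate 3, and the NTEV call without NTEV replicate 2.

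Of the 28 tested STAT3 targets, 8 rose and 0 fell in ATEV against PBS, among them Lcn2, Saa3, Tnfrsf1b (0.72 ± 0.15, adjusted p = 0.0152) and the survival gene Bcl2l1 (0.64 ± 0.14, adjusted p = 0.0248). This count was 0 without PBS replicate 2 and 2 without PBS replicate 1, PBS replicate 3 or ATEV replicate 2. NTEV against PBS called 4 higher and 0 lower, ATEV against DNase-ATEV 3 and 0, ATEV against NTEV 0 and 1, and DNase-ATEV against NTEV 0 and 2. With 1 library left out the NTEV against PBS count was 7 without NTEV replicate 1 and 1 or 2 without any other, and in the fit of 2 groups it was 1. That of ATEV against DNase-ATEV was 0 without ATEV replicate 3 or DNase-ATEV replicate 2, 1 without ATEV replicate 2 or DNase-ATEV replicate 3, 5 without ATEV replicate 1, and 1 in the fit of 2 groups. That of DNase-ATEV against NTEV was 1 with the replicate block, which ended the call of Saa3 (adjusted p = 0.0567), was 1 without DNase-ATEV replicates 2 or 3 or NTEV replicate 2, and was 0 in the fit of 2 groups. The median was 0.26 for ATEV against PBS and 0.27 for NTEV against PBS. DNase-ATEV against PBS called 0 of the 28 with edgeR, with DESeq2 or at an unadjusted p under 0.05. Among all genes 0%, 0.3% and 5.96% passed these 3 thresholds.

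Of 18 tested dendritic cell genes that depend on IRF4 or IRF8, 3 rose and 0 fell in ATEV against PBS, and of these Tlr3 is also in the list of sensors. The others were Cd36, a scavenger receptor (1.09 ± 0.23, adjusted p = 0.0197), and Itgam, which encodes CD11b (0.51 ± 0.13, adjusted p = 0.0435). Itgam was higher in NTEV than in PBS as well (0.54 ± 0.13, adjusted p = 0.0480), as was Ebi3, a subunit of IL-27 (1.47 ± 0.19, adjusted p = 0.00296). Ebi3 was lower in DNase-ATEV than in NTEV (-1.28 ± 0.19, adjusted p = 0.0151). The Ebi3 call over PBS held without any 1 library, and that against DNase-ATEV ended without DNase-ATEV replicates 2 or 3. Cd36 lost its call without ATEV replicates 2 or 3 or PBS replicates 2 or 3. Itgam passed only without ATEV replicate 3 in ATEV, and only without NTEV replicate 1 in NTEV. EdgeR called 0 of this list in ATEV against DNase-ATEV, ATEV against NTEV and DNase-ATEV against PBS, where 4, 5 and 0 of the 18 passed an unadjusted p under 0.05, which 15.2%, 13.4% and 5.96% of all genes did, and DESeq2 called 1, 2 and 0.

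**Figure D5:**
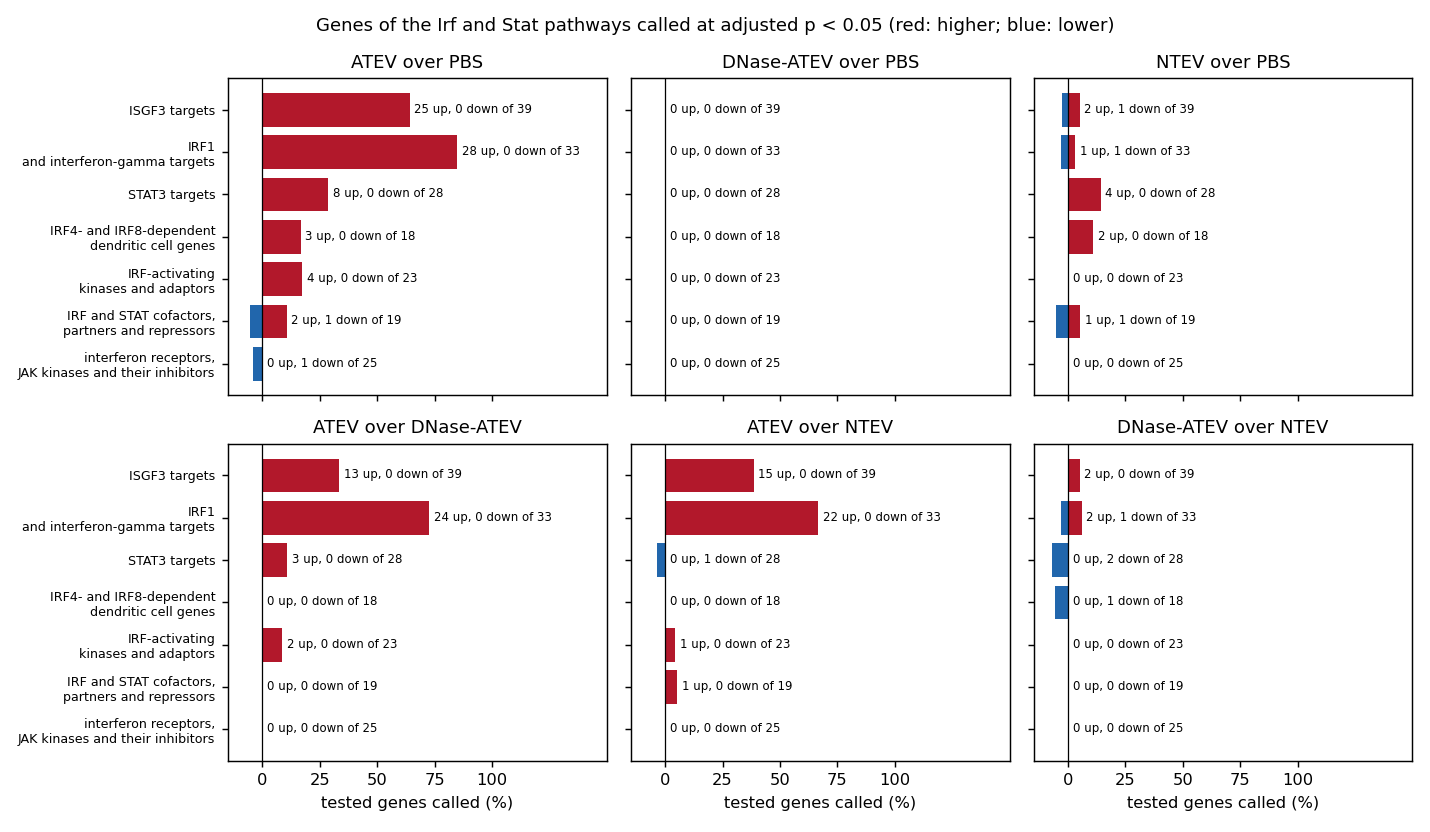
Share of tested genes called higher (red, right of 0) or lower (blue, left of 0) at an adjusted p under 0.05, for 7 gene lists in the 6 comparisons, with the counts beside the bars. The 2 upper lists hold most calls where ATEV is on top (25 of 39 and 28 of 33 against PBS). All lists have 0 calls for DNase-ATEV against PBS, where 0% of all tested genes were called.

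The other family members measured were Irf3, Stat5a, Stat5b and Stat6, and 0 of these 4 were called by edgeR or DESeq2 in any of the 6 comparisons, with at most 1 per comparison past an unadjusted p under 0.05. Irf3, the constitutive factor activated behind cytosolic nucleic acid sensors, stood at 38.2 ± 3.17 CPM in ATEV, 39.0 ± 4.64 CPM in DNase-ATEV, 37.1 ± 0.75 CPM in NTEV and 37.5 ± 4.99 CPM in PBS. Its log2 difference of ATEV from PBS was 0.02 ± 0.13 (adjusted p = 0.928). Stat6, which carries IL-4 signals, stood at 160.6 ± 5.25 CPM in ATEV and 194.3 ± 16.9 CPM in PBS (-0.27 ± 0.12, adjusted p = 0.171).

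The promoter letters were also counted over the target lists. Of 31 ISGF3 targets with a RefSeq window, 11 (35.5%) held the response element, as did 11 of 25 IRF1 and interferon-gamma targets (44%), against 3.46% of 27025 genes. It was also held by 3 of 26 STAT3 targets (11.5%). The STAT dimer element was found for 5 of the 26 STAT3 targets (19.2%), 6 of the 31 ISGF3 targets (19.4%) and 6 of the 25 IRF1 and interferon-gamma targets (24%), against 8.13% of all genes, so it was not more frequent in the STAT3 list than in the other lists. Of the 9 genes chosen here, 2 held the response element, Stat2 and Irf2, whose sequences are printed above.

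Markers of other cells were read beside these results. Of 15 T cell markers, 4 (Cd3e, Cd8a, Trbc1 and Trbc2) were at 0 counts in all 12 libraries. Trac had 19 counts in total, Cd4 18, Cd2 10, Cd3d 7, Cd3g, Thy1 and Zap70 2 each and Cd8b1 1. In contrast, Cd28 averaged 47.9 CPM, Lck 9.89 CPM and Cd5 1.92 CPM, and Lck and Cd5 were not called in any comparison. The summed level of the list was 44.7 to 63.7 CPM in ATEV and 55.8 to 62.4 CPM in DNase-ATEV. It was 36.2 to 53.9 CPM in NTEV and 60.1 to 102.6 CPM in PBS. Most of that sum was Cd28, a costimulatory receptor, which was lower than in PBS both in ATEV (-0.83 ± 0.22, adjusted p = 0.0488) and in NTEV (-1.07 ± 0.22, adjusted p = 0.0266). In ATEV this call was kept only when PBS replicate 1 was the library left out. In NTEV it ended without NTEV replicate 3 or PBS replicates 2 or 3. Of 7 B cell markers 3 were at 0, while Cd22 averaged 1.72 CPM. Cd22 was higher in NTEV than in PBS (1.60 ± 0.33, adjusted p = 0.0269), a call kept only when NTEV replicate 1 was the library left out. The 12 macrophage markers summed to 5098 to 8760 CPM in ATEV, 3508 to 3868 CPM in DNase-ATEV, 5527 to 5914 CPM in NTEV and 3632 to 4323 CPM in PBS, with none at 0. Of these, 4 rose in ATEV against PBS, namely Lyz2 (1.22 ± 0.23, adjusted p = 0.0113), Msr1, Fcgr1 and C1qb. The Lyz2 call ended without PBS replicate 2 (adjusted p = 0.0737), and that of Msr1 was kept only without ATEV replicate 1. Fcgr1 lost its call without ATEV replicates 2 or 3 or PBS replicates 2 or 3. C1qb lost its call without ATEV replicates 2 or 3 or PBS replicates 1 or 2. Lyz2 also rose over DNase-ATEV (1.51 ± 0.23, adjusted p = 0.00489), and Fcgr1 (1.27 ± 0.19, adjusted p = 0.00405) and C1qb (3.62 ± 0.65, adjusted p = 0.0141) rose over NTEV. Of these, the C1qb call ended without ATEV replicate 3 or NTEV replicates 2 or 3, and the others held without any 1 library. Among 6 tested dendritic cell markers Itgax, which encodes CD11c, stood at 39.4 ± 7.65 CPM in ATEV, 40.2 ± 12.7 CPM in NTEV and 16.1 ± 3.85 CPM in PBS, and rose over PBS in both ATEV (1.29 ± 0.25, adjusted p = 0.0116) and NTEV (1.32 ± 0.25, adjusted p = 0.0185). The ATEV call of Itgax ended without ATEV replicate 2 or PBS replicate 1. Its NTEV call ended without NTEV replicates 2 or 3 or PBS replicates 1 or 3. Some macrophage markers, Itgax and Cd28 thus moved in ATEV beside Irf1, Irf7, Irf9, Stat2 and Irf8. Each of these marker calls against PBS ended without at least 1 single library. The part of these markers in the results for the Irf and Stat genes was not tested.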

How the data were processed

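Per the labels' protocols, total RNA came from RNeasy Plus Mini columns and the library kit was TruSeq stranded mRNA. Build mm9, TopHat, TopHat2 2.0.11, bcl2fastq 2.19 and Cufflinks 2.1.1 are listed in the submitters' processing notes; the read counter, annotation and strand setting are not given in the sources used here. The authors deposited whole-number counts per gene and library. Of 42687 Ensembl identifiers 42250 were given symbols from GENCODE M21, whose exon unions also gave the lengths.

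In R 4.3.3, edgeR 4.0.16 fitted 1 mean per group to all 12 libraries (filterByExpr, minimum count 10 and total 15; TMM; quasi-likelihood F test, two-sided). Adjusted p-values are Benjamini-Hochberg over 13261 genes within each of 6 comparisons. Alternatives used DESeq2 1.42.0, limma-voom 3.58.1, other scalings and filters, fits of 2 groups, single libraries left out and the replicate number as a block. Deviations of same-numbered libraries correlated over 0.1 for every number in DNase-ATEV against NTEV alone (0.619, 0.346 and 0.129), from the data and not from the labels. Replicate 1 also correlated in NTEV against PBS (0.519) and in DNase-ATEV against PBS (0.440), where replicate 2 did not (0.005 and -0.058). The fit was tested on simulated counts. Counts of the 3 target lists under these alternatives, and named list genes under some of them (DESeq2, 2 groups, block, single libraries left out), were added after seeing the data.

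The genes, lists and tests were chosen with earlier results of these data known. Named genes are the family, up to 4 called genes per list and comparison with the smallest adjusted p, and the 3 nearest profiles of each called family member. Fold changes of overlapping genes depend on the counting: small exonic overlaps exist for Irf1, Irf7, Irf9 and Stat3. Some genes of the family are not reported here. Depth was 19.4 to 30.4 M counts, replicates differed by more than counting noise, and intervals on counts cover counting error only.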

Additional observations from a re-analysis of the deposited data

How the results depend on the processing

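The calls of Irf1, Irf7 and Irf9 against PBS, and of Irf1 and Irf7 against DNase-ATEV and NTEV, kept their direction and passed the threshold under every alternative run. Of the 8 genes, 3 were called for ATEV against DNase-ATEV, but 5 with DESeq2 and 5 without a filter on low counts; 1 was called for NTEV against PBS without a filter, in place of 0. Leaving out 1 library gave 3 to 5 called genes for ATEV against PBS, 2 to 3 against DNase-ATEV, 2 to 3 against NTEV and 0 to 1 for NTEV against PBS. The replicate block left the number of called family members as it was in all 6 comparisons (5, 3, 3, 0, 0 and 0).

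Counts over all genes moved more. ATEV against PBS called 628 genes, and 1516 with DESeq2, 1317 without a filter, 1244 with those 2 groups alone, 1440 with the replicate block and 169 to 849 with 1 library left out. ATEV against DNase-ATEV called 194, and 479, 394 and 78 to 522 with DESeq2, without a filter and with 1 library left out. ATEV against NTEV called 124, and 361 with DESeq2, 242 without a filter, 82 with 2 groups and 70 to 302 with 1 library left out. DNase-ATEV against NTEV called 90, and 381 with DESeq2, 319 without a filter, 2 with 2 groups, 41 with the block and 4 to 321 with 1 library left out. DNase-ATEV against PBS called 0, and 37 with DESeq2, 47 without a filter, 2 with upper quartile scaling, 1 with the block and 0 to 8 with 1 library left out. NTEV against PBS called 306, and 826 with DESeq2, 876 without a filter, 19 with 2 groups and 34 to 1685 with 1 library left out. The cause of these shifts was not tested.

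Among 672 recomputed log2 fold changes of single genes 627 kept their side of the threshold and direction, 15 lost and 9 gained a call, and 21 changed sign, none of which was a call. These were Irf1 in NTEV against PBS (5.59e-05 without a filter, -0.42 to 0.52 with 1 library left out), Irf5 in DNase-ATEV against NTEV (0.00073 with the replicate block, 0.018 with upper quartile scaling, -0.066 to 0.074) and Stat3 in DNase-ATEV against PBS (0.0061 without a filter, 0.00038 with 2 groups, 0.028 with upper quartile scaling, -0.11 to 0.086). With 1 library left out the range was -0.10 to 0.29 for Irf7 in DNase-ATEV against NTEV, -0.056 to 0.13 for Irf8 and -0.12 to 0.38 for Irf9 in NTEV against PBS, -0.037 to 0.39 for Stat2 in DNase-ATEV against PBS, and -0.034 to 0.14 for Stat3 in ATEV against NTEV.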
